A study of Populus ussuriensis with 18 samples.

Results

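A set of 35 genes in roots of Populus ussuriensis kept close to, or above, its control level during the first 96 h of low nitrogen (LN) supply and was low after 336 h. The genes were chosen on the readout itself. For each gene, the mean of log2(FPKM + 1) over the 3 control libraries was subtracted from the mean at each LN time point, where FPKM corrects the fragments of a gene for its length and for the library total. A gene belonged to the set where this difference was -1.5 or less at 336 h and above -0.5 at each of 12, 24, 48 and 96 h. Of 30485 genes in the files, 442 reached the limit at 336 h, and 407 of these had an earlier time point at -0.5 or less, which left 35. The same rule turned upside down, for genes raised at 336 h only, gave 39 genes. Since the limits used the differences from the control at all 5 LN time points, those differences are described here and are no independent finding.

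Roots of clonally propagated plantlets, grown in vitro, were sequenced in 18 libraries, 3 labelled biological replicates at each of 6 time points. Fragments were counted on genes of the related P. trichocarpa. Plantlets rooted on medium with 10 mM nitrate and 5 mM ammonium gave the control at 0 h, and plantlets moved from it to medium with 0.05 mM nitrate and 0.025 mM ammonium gave the LN groups at 12, 24, 48, 96 and 336 h. No control beyond 0 h was analysed here, so the N supply and the time since transfer cannot be told apart. The labels name a batch for each time point, so batch and time point cannot be told apart either. Per library, 15945074 to 18193660 fragments were counted on genes. For a typical gene length (median 1707 bp) and total, 0.101 FPKM stood for 3 fragments, a limit that covers counting error only. Of 9 genes known from roots or meristems, 8 had fragments in all 18 libraries, and AIL1 (Potri.001G169500) had 0 to 0.709 FPKM, with fragments in 17. SCARECROW (Potri.006G114200), a regulator of ground tissue patterning in the Arabidopsis root, had 3.39 to 12.5 FPKM, and SHORT-ROOT (Potri.017G025900), which acts upstream of it, had 3.20 to 15.7 FPKM. Other genes described as SCARECROW had less, at 0.304 to 2.15 FPKM (Potri.016G143900) and 0.0682 to 0.779 FPKM (Potri.T138100).

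Nitrate and ammonium are the main mineral forms in which roots take up N, and nitrate also acts as a signal that alters the expression of many genes. Plants short of N over a long time reuse the N bound in proteins, of which the photosynthetic proteins and the ribosomes hold a large share. Root cells carry plastids, commonly without thylakoid stacks, in which nitrite is reduced and amino acids are made. These plastids have ribosomes of their own. Of the 35 genes, 3 had a protein description in the study's supplementary gene lists, which together describe 1147 genes, or 3.76% of all genes. One encodes a protein described as the chloroplast stem-loop binding protein of 41 kDa a, one a WRKY transcription factor 22 and one a nematode resistance protein-like HSPRO2. The other 32 are given here by identifier only.

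In the control, the mean level of the 35 genes ranged from 3.39 to 191 FPKM, with a median of 21.5 FPKM. At 12, 24, 48 and 96 h the median was 30.4, 26.1, 27.9 and 24.2 FPKM. It was 4.49 FPKM at 336 h, where the means ranged from 0.443 to 59.3 FPKM. At 336 h the genes held 10.1% to 34.1% of their control level (median 25.3%), that is, they were 2.93- to 9.93-fold lower (median 3.95-fold). Every member was counted in all groups: the gene with the fewest fragments at 336 h had 16 over the 3 libraries, and the median was 377 fragments. In RNA of root tissue, fewer cells that express a gene and less of its RNA per cell cannot be told apart.

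On the log2(FPKM + 1) scale, the difference from the control at 336 h ran from -2.98 to -1.52, with a median of -1.76. The median of all 23320 genes tested at 336 h was 0.21. At the earlier time points (12, 24, 48 and 96 h, in this order) the medians of the 35 genes were 0.25, 0.01, -0.02 and -0.05. The corresponding medians of the genes tested at each of these time points were 0.15, 0.08, 0.04 and 0.13. From 96 h to 336 h, the genes differed by -4.23 to -1.12 (median -1.94), while the median of the tested genes was 0.05. In each of the 35 genes, all 3 libraries of 336 h lay below all other 15 libraries. Such a separation was found in 1291 of the 23320 tested genes, or 5.54%, and since the limits select for it, nothing is read from the count of members.

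The limma test across all genes, with thresholds of 1 on the log2 scale and 0.05 on the adjusted p, called all 35 genes lower at 336 h than in the control, where it called 4.07% of tested genes lower. It called all 35 lower at 336 h than at 96 h, where 4.96% of tested genes were called. At the earlier time points it called some of the 35 genes higher, namely 5 at 12 h (6.21% of tested genes), 2 at 24 h (4.29%), 2 at 48 h (2.84%) and 5 at 96 h (8.18%). It called none of the 35 lower there, which the limit of -0.5 does not allow, against 2.62%, 1.41%, 2.14% and 1.84% of tested genes at 12, 24, 48 and 96 h. All these contrasts entered the choice of the genes, so the counts are a description.

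**Figure D1:**
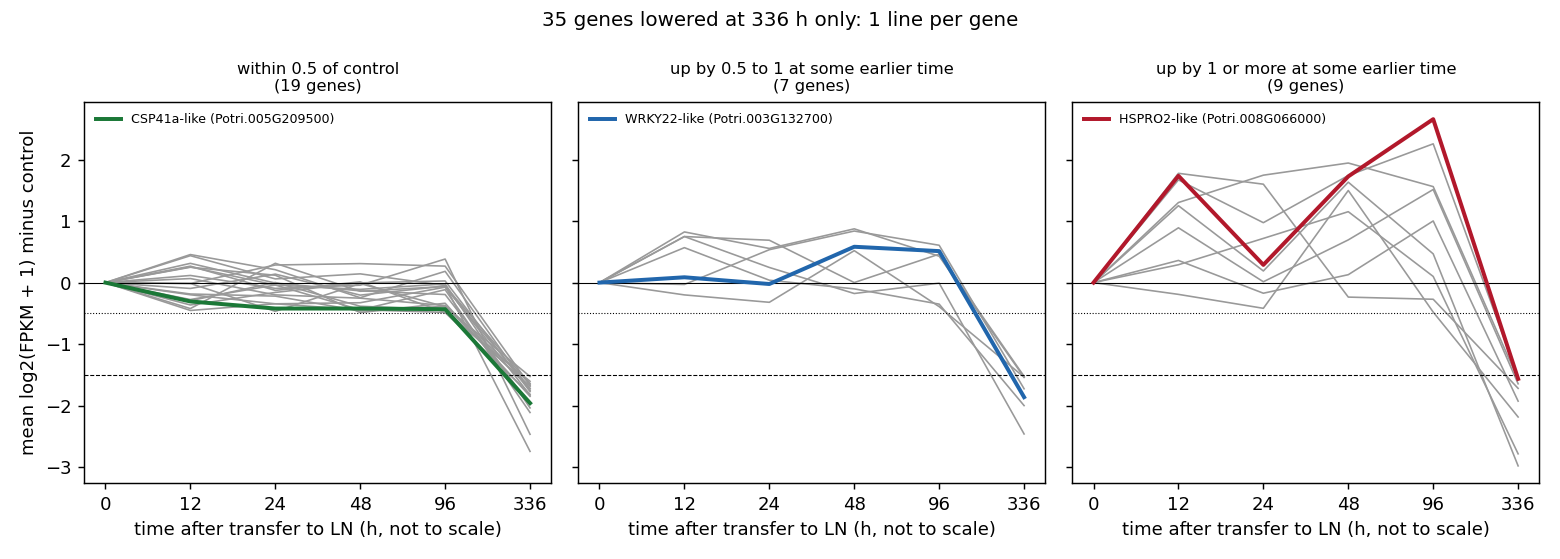
Mean log2(FPKM + 1) minus the control mean (y axis) at each time point after transfer to LN (x axis, h, not to scale), 1 line for each of the 35 genes, in 3 panels by their level before 336 h. Dashed and dotted lines mark the limits of -1.5 and -0.5. 19 genes stayed within 0.5 of the control before 336 h, 7 stood 0.5 to 1 and 9 stood 1 or more above it at some earlier time point, and all lie at or below -1.5 at 336 h. Replicate 3 of 48 h stood apart from replicates 1 and 2 in 11 of the 35 genes, which the means do not show.

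Before 336 h the genes had different courses, which the limits left free on the upper side. A group of 19 genes stayed within 0.5 of the control at all 4 earlier time points. Another 7 stood 0.5 to 1 above the control at least once, and 9 stood 1 or more above it, of which 4 did so at 1 time point, 2 at 2, 2 at 3 and 1 at all 4. The highest earlier level fell at 12 h in 14 genes, at 24 h in 4, at 48 h in 9 and at 96 h in 8. The median difference at 336 h from the control was similar in the 3 groups, at -1.77, -1.73 and -1.72. The median difference from 96 h to 336 h was -3.14 in the 9 genes, against -1.66 in the 19 genes that stayed near the control and -1.99 in the 7 between. The groups were formed on the earlier differences, 96 h among them, so this order follows in part from the grouping and nothing is read from it. Of the 9, 5 still stood 1.00 to 2.66 above the control at 96 h, and the other 4 lay between -0.48 and 0.47 there.

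Potri.005G209500, the gene described as the chloroplast stem-loop binding protein of 41 kDa a, was among the 19. In Arabidopsis this protein, CSP41a, binds RNA in the chloroplast and is associated with the stability of plastid transcripts and with plastid ribosomes. Its FPKM were 17.4, 16.1 and 18.8 in the control replicates and 3.23, 4.04 and 3.95 at 336 h. In between, 12 h had 14.3, 13.8 and 13.5 FPKM, 24 h had 12.4, 12.95 and 12.9 FPKM, 48 h had 10.96, 12.7 and 14.8 FPKM, and 96 h had 11.4, 14.1 and 12.6 FPKM. All 12 libraries of the earlier LN time points lay below the control libraries and above those of 336 h, so the gene had 2 steps, a small one before 12 h and a larger one between 96 h and 336 h. On the log2 scale the differences were -0.31, -0.42, -0.42 and -0.43 at 12, 24, 48 and 96 h and -1.96 at 336 h. Its place in the set depended on replicate 3 of 48 h, the highest of the 3 there: without this library the difference at 48 h was -0.52, past the limit.

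Potri.003G132700, described as WRKY transcription factor 22, was 1 of the 7 genes that stood 0.5 to 1 above the control before 336 h. WRKY proteins bind W-box elements in promoters, and WRKY22 of Arabidopsis is known from the response to bacterial flagellin and from leaf senescence in the dark. In the control it had 31.8, 32.7 and 31.8 FPKM, and at 336 h it had 8.00, 7.20 and 9.20 FPKM. At 12 h (33.4, 33.8 and 35.2 FPKM) and at 24 h (31.3, 32.2 and 31.2 FPKM) it was near the control. At 48 h the replicates split, with 61.9 and 59.9 FPKM in replicates 1 and 2 and 30.9 in replicate 3, and at 96 h they were at 46.4, 48.9 and 43.6 FPKM. The 96 h libraries all lay above the control libraries by a mean of 0.51 on the log2 scale, and the difference at 336 h was -1.86, at 25.3% of the control FPKM.

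Potri.008G066000, described as a nematode resistance protein-like HSPRO2, was 1 of the 9 genes that stood higher first, and it had the largest difference of the 35 between 96 h and 336 h. HSPRO2 of Arabidopsis is related to a sugar beet gene for resistance to cyst nematodes, takes part in basal resistance to bacteria and binds subunits of the SnRK1 kinase, which senses energy status. In the control it had 24.2, 26.2 and 25.3 FPKM. It stood at 83.9, 88.0 and 87.7 FPKM at 12 h, came back to 32.8, 29.4 and 31.1 at 24 h and reached 166, 168 and 161 FPKM at 96 h, or 6.53 times the control mean. At 48 h, replicates 1 and 2 had 156 and 148 FPKM and replicate 3 had 27.0. At 336 h it had 8.25, 9.77 and 5.99 FPKM, below every other library, and the 96 h mean was 20.6 times that of 336 h. The difference between 336 h and 96 h was -4.23 on the log2 scale, the lowest of the 35 genes, while that between 336 h and the control was -1.57. Without replicate 3 of 336 h the latter was -1.40, short of the limit of -1.5.

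Potri.013G070300, which has no description, stood 1 or more above the control at the same 3 time points as Potri.008G066000, namely 12, 48 and 96 h. It had 6.86, 7.0 and 6.94 FPKM in the control, while 12 h had 24.5, 25.0 and 23.3 FPKM, 24 h had 14.0, 15.8 and 14.0 FPKM and 96 h had 35.8, 35.2 and 40.1 FPKM. At 336 h it had 1.18, 2.22 and 1.93 FPKM, and the 96 h mean was 20.8 times that of 336 h. As in that gene, replicates 1 and 2 of 48 h were high, at 38.6 and 40.4 FPKM, and replicate 3 was low, at 10.4 FPKM. Its libraries of 12, 24, 48 and 96 h all lay above the control libraries.

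**Figure D2:**
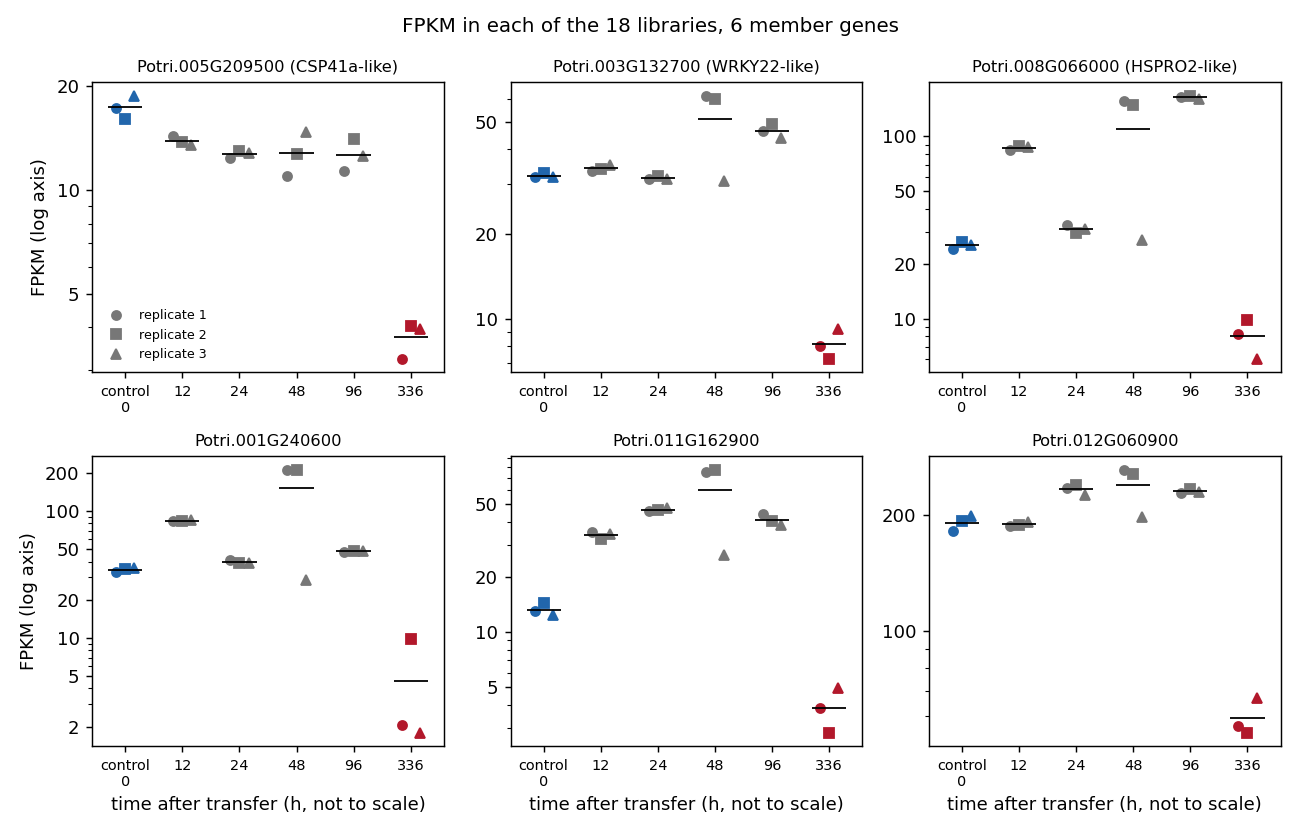
FPKM on a log axis (y) in each of the 18 libraries by time after transfer (x axis, h, not to scale) for 6 of the 35 genes. Symbols stand for the replicate number and black lines for the mean of 3, with the control in blue and 336 h in red. In all 6 genes the 336 h libraries lie below the other 15, and in 5 of them (all but Potri.005G209500) replicate 3 of 48 h lies below replicates 1 and 2.

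Potri.011G162900 was the only one of the 35 genes that stood 1 or more above the control at all 4 earlier time points, and the only one called higher at all of them. It had 13.1, 14.4 and 12.4 FPKM in the control and means of 34.2 ± 1.5 (12 h), 46.8 ± 0.918 (24 h), 59.8 ± 28.9 (48 h) and 41.1 ± 3.00 FPKM (96 h), each with its SD and n = 3. All 12 of these libraries lay above the control, with differences of 1.30, 1.75, 1.95 and 1.56 on the log2 scale. At 336 h it had 3.84, 2.80 and 4.94 FPKM, and without replicate 2, the lowest of them, its difference from the control was -1.41 in place of -1.58, short of the limit of -1.5.

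Potri.005G181600 was the gene with the highest rise at 12 h. From 14.5 ± 1.33 FPKM in the control it went to 51.9 ± 0.675 at 12 h and 45.8 ± 2.26 at 24 h (SD, n = 3), differences of 1.78 and 1.60 on the log2 scale. It was at 11.8 ± 0.664 FPKM at 96 h and at 2.92, 5.53 and 3.00 FPKM at 336 h. It was also the gene whose replicates of 48 h split the other way, with 7.94 and 5.64 FPKM in replicates 1 and 2 and 36.8 in replicate 3. Without replicate 3 its difference at 48 h was -1.0, so that it would no longer be lowered at 336 h only.

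Potri.018G076800 and Potri.008G127800 rose at 96 h. The former had 38.5 ± 2.63 FPKM in the control, 112 ± 7.32 at 96 h and 11.7 ± 1.81 at 336 h (SD, n = 3). The latter had 4.39 ± 0.418 FPKM in the control, 9.80 ± 0.492 at 96 h and 0.443 ± 0.363 at 336 h, the lowest level of all members. It rested on 16 fragments over the 3 libraries of 336 h, against 162 in the control. Its rise at 96 h stood at the threshold, with a difference of 1.00 on the log2 scale, and under 6 of the alternatives it fell below it, with a lowest value of 0.75 after quantile normalization.

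The lowest difference of all at 336 h was that of Potri.001G240600. Its control libraries had 33.2, 34.9 and 35.9 FPKM and its 336 h libraries 2.05, 9.84 and 1.78 FPKM. Replicate 2 of 336 h stood apart from the other two, yet all 3 lay below the other 15 libraries. The gene was at 83.1, 83.6 and 84.8 FPKM at 12 h, at 39.7 ± 1.19 at 24 h and at 48.3 ± 0.680 at 96 h (SD, n = 3), while at 48 h it had 211 and 213 FPKM in replicates 1 and 2 and 28.9 in replicate 3.

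After it came Potri.009G072900 (-2.79), Potri.002G092500 (-2.75), Potri.001G204300 (-2.47), Potri.007G023800 (-2.46) and Potri.018G102000 (-2.19). Potri.002G092500 is the longest of the 35 genes, at 3826 bp. Before 336 h it stayed within 0.5 of the control, with its highest difference, 0.44, at 12 h. It had 25.0 ± 1.24 FPKM in the control and 34.3 ± 0.287 FPKM at 12 h. The 96 h level was 24.2 ± 1.62 FPKM and the 336 h level 2.89 ± 0.431 FPKM (SD, n = 3). Potri.009G072900 had 47.5 ± 2.71 FPKM in the control, 78.7 ± 0.868 FPKM at 24 h and 107 ± 11.8 FPKM at 48 h, the last called higher, and had 6.24 ± 2.31 FPKM at 336 h. Potri.018G102000 was high in only 2 of the 15 libraries outside 336 h: replicates 1 and 2 of 48 h had 87.5 and 81.3 FPKM, and the other 13 libraries had 10.1 to 16.7 FPKM. The next 6 in this order were Potri.006G087700, Potri.008G114000, Potri.004G147300, Potri.006G017500, Potri.005G209500 and Potri.008G127800, at -2.11 to -1.93.

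The 3 most abundant of the 35 genes were nearly flat before 336 h. Potri.012G060900 had 182, 192 and 199 FPKM in the control and 56.6, 54.3 and 67.2 at 336 h. Potri.003G052500 had 164, 162 and 160 FPKM in the control and 44.3, 58.4 and 39.1 at 336 h, and Potri.002G196100 had 105 ± 3.79 and 31.0 ± 3.30 FPKM (SD, n = 3). In these 3 genes the 336 h libraries held 29.2% to 31.1% of the control mean, and their differences at the earlier time points lay between -0.36 and 0.31. Potri.002G083500, at 99.4 ± 5.43 FPKM in the control and 26.9 ± 2.93 at 336 h, came closest to the earlier limit, with -0.49 at 48 h. The other 8 of the 12 most abundant were Potri.007G099400, Potri.002G214800, Potri.019G118500, Potri.009G072900, Potri.018G076800, Potri.001G240600, Potri.014G093900 and Potri.003G132700. Their control means were 32.1 to 64.0 FPKM, with 13.1% to 34.1% of that level left at 336 h. Of these, Potri.009G072900, Potri.018G076800 and Potri.001G240600 were not flat, with highest earlier differences of 1.15, 1.52 and 1.63. Potri.003G132700 was not flat either, at 0.58 at 48 h and 0.51 at 96 h.

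Around the limit of -1.5, the members nearest inside were Potri.011G142200 at -1.52, Potri.007G099400 at -1.53 and Potri.013G070300 at -1.53. The genes nearest outside were Potri.006G139600 at -1.48, Potri.014G120700 at -1.47 and Potri.012G018100 at -1.47, so the set has no gap at its edge. Around the earlier limit, Potri.007G042900 at -0.49 and Potri.006G276400 at -0.48 were inside, and Potri.011G122400 at -0.50, Potri.004G142300 at -0.51 and Potri.004G020500 at -0.51 were outside.

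To read the same measure in libraries that the choice had not used, the rule was applied with 1 replicate number left out at all 6 time points, and the genes it found were then read in the replicate left out. Without replicate 1, 30 genes were found, and in replicate 1 their median difference at 336 h was -1.92, with 27 of them at -1.5 or less and all 30 at -1 or less. Without replicate 2, 38 genes were found, with a median of -1.5 in replicate 2, 19 at -1.5 or less and 35 at -1 or less. Without replicate 3, 25 genes were found, with a median of -1.87 in replicate 3, 22 at -1.5 or less and all 25 at -1 or less. The medians of all tested genes in the same replicates were 0.19, 0.25 and 0.18, and 2.17%, 1.69% and 2.02% of tested genes stood at -1.5 or less. The low level at 336 h was thus seen in the replicate left out each time. The rule also sets limits before 336 h, and all 5 of its conditions together were met in the left-out replicate by 15 of 30, 16 of 38 and 18 of 25 genes. The labels call the replicates biological, and nothing in the sources used here says that libraries of 1 number share a plant or a culture.

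Replicate 2 of 336 h was the highest of the 3 libraries in 26 of the 35 genes (74.3%), and in 278 of the 407 other genes that reached -1.5 at 336 h (68.3%). Over all tested genes it was the highest in 47.6%. The median of replicate 2 minus the mean of replicates 1 and 3 was 0.24 in the 35 genes and 0.21 in the 407. In the 39 genes raised at 336 h only it was the lowest in 19 (48.7%). Without this library, 41 genes met the rule and 34 of the 35 remained.

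Replicate 3 of 48 h stood apart in 11 of the 35 genes (31.4%), where its log2 value was at least 1 away from the mean of replicates 1 and 2, lower in 10 and higher in 1. The share over all tested genes was 10.8%. In 8 genes each, replicates 1 and 2 stood 1 or more above the control, and in replicate 3 only 1 gene did. Of the 11 genes, 9 had a level in replicate 3 nearer to the mean of 24 h than the mean of replicates 1 and 2 was, and in 7 replicate 3 was within 0.5 of the 24 h mean. The number of members called higher at 48 h therefore rested on this library: limma called 2 with it and 9 without it, where it called 9.39% of the 23325 genes tested higher. These 9 were Potri.001G240600, Potri.008G066000, Potri.011G162900, Potri.018G102000, Potri.013G070300, Potri.008G203200, Potri.009G072900, Potri.014G030700 and Potri.018G076800, with differences of 1.03 to 2.58. Without each of the other 5 libraries of the comparison in turn, 1 gene was called. Without replicate 3 of 48 h, 32 genes met the rule, all among the 35, and Potri.005G209500, Potri.005G181600 and Potri.006G276400 left the set.

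**Figure D3:**
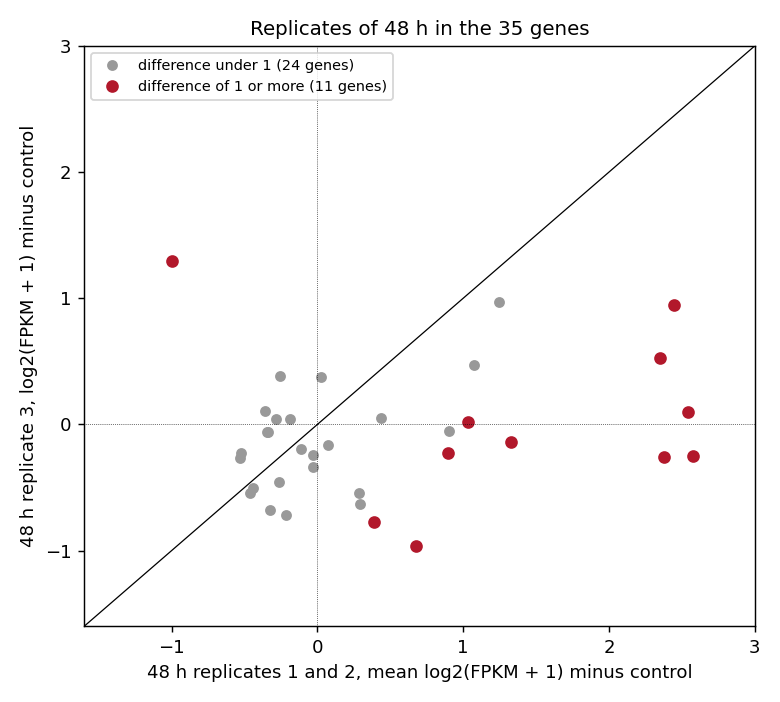
Log2(FPKM + 1) minus the control mean at 48 h in the 35 genes, as the mean of replicates 1 and 2 (x axis) and in replicate 3 (y axis), with the line of equal values. The 11 genes in red differ by 1 or more, and 10 of them lie below the line, where replicates 1 and 2 are the higher ones.

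Neighbouring LN time points also differed before 336 h. Between 12 h and 24 h, limma called 2 of the 35 genes lower, Potri.008G066000 (-1.45) and Potri.001G240600 (-1.06), where 1.16% of tested genes were called. It called none higher (1.35% of tested genes), also by limma-voom on recovered fragments, and 8 were higher at an unadjusted p under 0.05. In both genes the 3 libraries of 12 h lay above those of 24 h and of the control. By the hours after transfer, 12 h and 24 h also differ in the time of day, which cannot be told apart from the time under LN.

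The study's lists hold further genes of plastids, and many of these were lower at 336 h. The lists were made from genes that had changed in these same samples, so their direction is not independent evidence. The plastid ribosome and translation list was made up of CSP41a and 3 proteins of the large plastid ribosome subunit. All 4 genes were called lower at 336 h (4.07% of tested genes). The rule had set the call of CSP41a, and the other 3 were listed as changed in these samples, so nothing is read from the count. At 12, 24, 48 and 96 h limma and limma-voom called none of the 4 lower. There, 1, 1, 3 and 4 of them were lower at an unadjusted p under 0.05. The ribosomal protein genes were Potri.014G153000 (L6), at 38.4 ± 1.99 FPKM in the control and 14.7 ± 1.62 at 336 h, Potri.001G329500 (L27), at 38.0 ± 2.79 and 16.5 ± 1.54, and Potri.001G384600 (L13), at 21.2 ± 0.380 and 9.74 ± 1.55 (SD, n = 3). Their differences at 336 h were -1.33, -1.16 and -1.06, short of the limit of -1.5, and before 336 h they lay between -0.48 and 0.48. Without replicate 3 of 336 h, 3 of the 4 were called.

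Of 30 genes with a photosynthesis or thylakoid annotation, limma called 15 lower and 1 higher at 336 h (4.07% and 8.28% of all tested genes), with a median of -0.98. At 12, 24, 48 and 96 h it called 2, 1, 2 and 2 of them lower and 5, 2, 1 and 5 higher. CSP41a, L27 (Potri.001G329500) and L13 (Potri.001G384600) are also in the plastid ribosome and translation list. They are counted as lower in both, so the lists are not separate results. CSP41a was the single gene of the photosynthesis and thylakoid list in the set of 35. Among the others, Potri.001G438700, described as the 10 kDa polypeptide of photosystem II, fell from 12.5 ± 1.95 to 0.485 ± 0.175 FPKM, and Potri.006G099500, described as the chlorophyll a-b binding protein CP29.2, from 183 ± 2.69 to 29.7 ± 6.65 FPKM (SD, n = 3). These genes were outside the set because they had an earlier low value, of -0.83 at 48 h and -1.71 at 12 h. The list also holds genes with other known roles, such as Annexin D1 (Potri.002G095600, -1.04) and an allene oxide synthase of jasmonate synthesis (Potri.014G038700, 2.94).

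The summed level of this list was read in every group, as its genes include markers of leaf tissue. Without CSP41a it was 1471 to 1486 FPKM in the control, 1207 to 1259 at 12 h, 1192 to 1210 at 24 h, 1143 to 1239 at 48 h, 1340 to 1394 at 96 h and 608 to 641 FPKM at 336 h. None of the 30 genes was at 0 in any library. Much of this sum came from genes with other roles, such as Annexin D1 and, at 96 h, Potri.002G119300, a zinc finger protein ZAT10 with 19.6 ± 1.12 FPKM in the control and 247 ± 7.16 FPKM at 96 h (SD, n = 3). For the 6 genes described as photosystem, chlorophyll-binding, thylakoid lumen or leaf ferredoxin reductase proteins, a selection made after the values were seen, the sum was 406 to 425 FPKM in the control and 94.0 to 123 FPKM at 336 h. In between it was 217 to 235 FPKM (12 h), 317 to 321 FPKM (24 h), 196 to 276 FPKM (48 h) and 385 to 411 FPKM (96 h). The sum of the 35 genes was 1247 to 1277 FPKM in the control and 307 to 381 FPKM at 336 h, with 1428 to 1518 FPKM (12 h), 1354 to 1388 FPKM (24 h), 1189 to 1902 FPKM (48 h) and 1503 to 1553 FPKM (96 h) in between. All 3 sums were at their lowest at 336 h, which the rule had set for the 35 genes. At 12 h and 24 h the sum of the 35 genes lay above its control range, and both others lay below theirs. The rule kept genes with an earlier low value out of the set and left the upper side free. The contrast at 12 h and 24 h thus follows in part from the choice of the genes, and nothing is read from it. The part of the photosynthesis and thylakoid genes in the level of the 35 was not tested.

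Among the 31 WRKY genes of the lists, Potri.003G132700 was the only one with a difference of -1.5 or less at 336 h. Of 28 tested there, limma called 14 higher and 2 lower, the other being Potri.010G160100 (WRKY57, -1.06), and the median was 0.84. At 96 h it called 16 of 28 higher and none lower, with 5 lower at an unadjusted p under 0.05 and up to 2 called lower by limma-voom. A pair of other genes with the same description, WRKY transcription factor 22, stood nearer to the control at 336 h: Potri.002G164400 had 12.6 ± 0.889 FPKM in the control and 9.82 ± 0.550 at 336 h, and Potri.014G090300 had 11.8 ± 0.527 and 10.9 ± 0.872 (SD, n = 3). At 96 h both were above the control, by 1.15 and 1.5. Reads of such related genes can be split between them when they are counted, and the authors' treatment of them was not given in the sources used here.

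**Figure D4:**
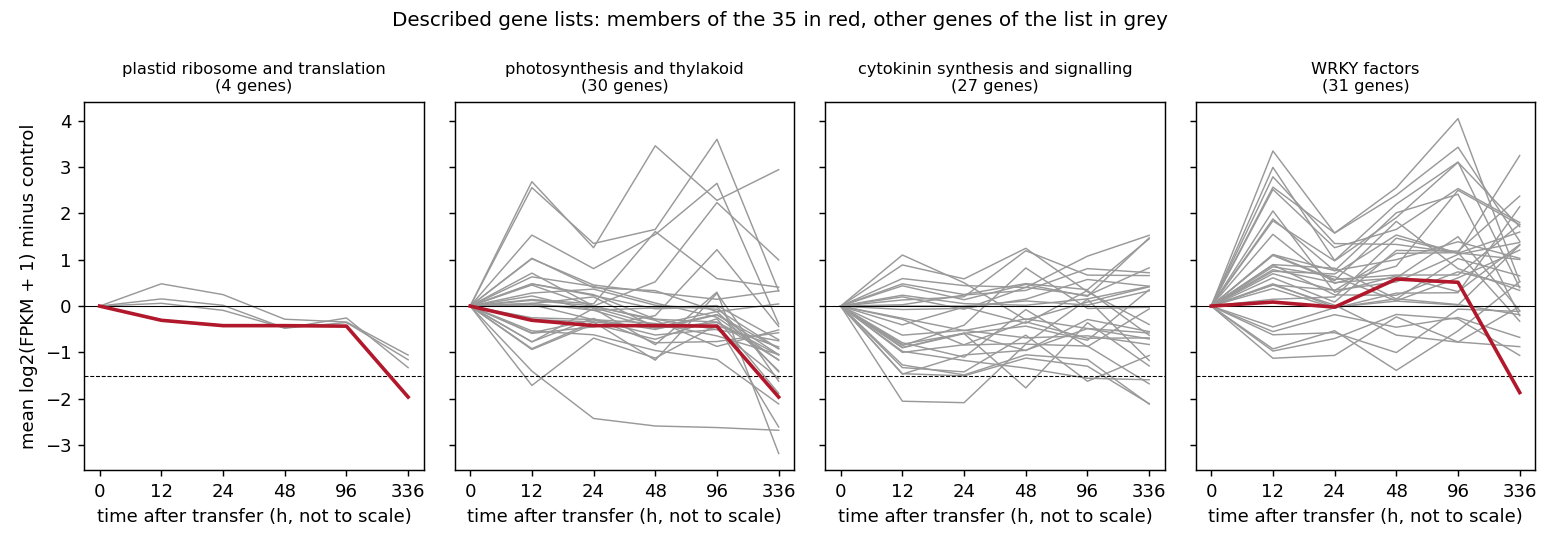
Mean log2(FPKM + 1) minus the control mean (y axis) by time after transfer (x axis, h, not to scale) for the genes of 4 lists, with members of the set of 35 in red and other genes in grey. The dashed line marks -1.5. The 4 plastid ribosome and translation genes all lie between -1.96 and -1.06 at 336 h, and the WRKY gene in red lies below all other WRKY genes of the list there.

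The other lists held few or no members. The set is 35 of all 30485 genes, so lists of this size would hold few or none in any case. Over all genes tested at 336 h, limma called 8.28% higher and 4.07% lower. The list of cytokinin synthesis and signalling genes held none, and of 22 tested 7 were called lower and 3 higher at 336 h. This list also holds Potri.002G256200, described as a xyloglucan galactosyltransferase MUR3 and not as a cytokinin gene. It was tested (0.66) and not called. Among those called lower were Potri.015G070000 (ARR5, -2.11) and Potri.008G193000 (ARR3, -2.10), response regulators whose Arabidopsis relatives are induced by cytokinin. Both were already low at 12 h, at -1.27 and -1.46. Nitrogen metabolism genes (33 higher and 18 lower of 89), class III peroxidases (16 and 8 of 51), AP2/ERF factors (27 and 6 of 60), MYB factors (27 and 5 of 73) and root development genes (30 and 8 of 78) held none of the 35 either. Hormone-related genes, of which the list is held in part, had 106 called higher and 56 lower of 317, and 2 of them were among the 35.

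Features that the rule did not use were the gene length and the position. The 35 genes had a median length of 1394 bp (430 to 3826 bp), against 1838 bp over the tested genes, a difference given as a description without a test. Their identifiers name 16 of the 19 chromosomes, with at most 6 genes on 1 of them, chromosome 2. Over the 18 libraries, the correlation of each gene with the mean course of the set ran from 0.64 in Potri.005G181600 to 0.97. The 18 libraries share 6 group means, so this describes the shape and is no test.

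Outside the set, the genes of 1 FPKM or more whose course over the 18 libraries was most like the mean of the 35 were Potri.010G175000 (r = 0.97), Potri.002G126900 (r = 0.96) and Potri.006G139600 (r = 0.95). These had smaller differences at 336 h, of -0.47, -1.29 and -1.48. The described gene most like it was Potri.007G071300 (r = 0.94), the photosystem II stability and assembly factor HCF136, with 15.9 ± 1.17 FPKM in the control, 15.7 ± 0.664 FPKM at 96 h and 5.36 ± 0.990 FPKM at 336 h (SD, n = 3). It was followed by Potri.008G127700, a PIN-LIKES 2 protein of a family of auxin carriers (r = 0.93), and Potri.005G112900, a leaf isozyme of ferredoxin-NADP reductase (r = 0.93), at -1.13 and -1.40. Potri.013G131100, a calcium channel of the TPC1 kind found in the vacuole membrane (r = 0.93), was at -2.42 at 336 h but also at -0.76 at 96 h, and was outside the set for that.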

How the data were processed

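RNA was sequenced from roots in 18 libraries, 3 for each of 6 time points. The authors deposited FPKM values for 30485 genes. The submitters' processing notes name Bowtie2 2.2.3 and HISAT2 2.1.0, the study's methods Bowtie2 and TopHat2 with the P. trichocarpa genome, with the counting tool not given in the sources used here. All FPKM values came out as whole numbers of fragments within 0.001 (100%), so fragments, lengths and totals were recovered. The members and lists were chosen with earlier results of these data known. Groups were compared on log2(FPKM + 1) with limma 3.58.1 in R 4.3.3, on the 6 libraries of each of 7 comparisons, over genes of at least 1 FPKM in at least 3 libraries, with Benjamini-Hochberg adjustment over all tested genes, and differences printed are means of log2(FPKM + 1). The fit was tested on simulated data. Named were the 12 members with the lowest difference at 336 h, those with the highest control level, all described members, those beside the limits, and others chosen after their values were seen. Alternatives were the pseudocount, the filter, quantile normalization, a variance trend, 1 fit of all 18 libraries, the replicate block, limma-voom on recovered fragments, the limits and each library left out. Those for the comparisons of LN time points with each other and for the lists were added after the data were seen. Tables were made with Python 3.11.15 and pandas 2.3.3, figures with matplotlib 3.10.9. No reference genome was used and no sequence is shown.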

Additional observations from a re-analysis of the deposited data

Results flagged for a closer look

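The difference between 24 h and 12 h was called in 2 genes. Between these time points, the time under LN, the time of day and the batch cannot be told apart. Potri.001G240600 had 83.9 ± 0.876 FPKM at 12 h and 39.7 ± 1.19 at 24 h, a log2 difference of -1.06. Potri.008G066000 had 86.5 ± 2.30 and 31.1 ± 1.67 FPKM, a log2 difference of -1.45 (SD, n = 3).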

How the results depend on the processing

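The number of genes in the set depended on its limits. It was 68 with a pseudocount of 0.1 (31 of the 35 among them), 143 with a limit of -1 at 336 h, 9 with a limit of -2 and 19 with an earlier limit of -0.25. It was 32 after quantile normalization (24 of the 35) and 25 to 41 without 1 library or 1 replicate number, and 18 of the 35 genes met the rule whichever single library was left out. Without quantile normalization, the median difference at 336 h was 0.16 over all genes and 0.21 over the tested genes. All 35 genes were called lower at 336 h than in the control and than at 96 h under each of 14 alternatives. The count called higher at 48 h was 1 without a filter, 6 with all 18 libraries in 1 fit, 1 with limma-voom scaled by median ratios, and 1 to 9 when a library was left out. The count lower at 24 h than at 12 h was 1 with all 18 libraries in 1 fit. Same-numbered replicates did not deviate together (r of -0.14 to 0.11 over 45 pairs), and the replicate block gave 5, 2, 2, 5 and 35 calls at 12, 24, 48, 96 and 336 h, as without it. Of the lists, the count of cytokinin genes lower at 336 h was 11 in place of 7, and that of WRKY genes 4 in place of 2, with limma-voom scaled by median ratios. The causes were not tested. Depth limits Potri.008G127800, with 16 fragments at 336 h.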
